A study of Mus musculus with 4 samples.

Results

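Guanylate-binding proteins (GBPs) and immunity-related GTPases (IRGs) were described in leukaemic spleen cells of mice given the FTO inhibitor CS1 or PBS. The genes were chosen by name, with their difference between CS1 and PBS already known: Gbp2, Gbp3, Gbp4, Gbp5, Gbp7, Gbp8 and Gbp9 of the GBPs, and Irgm1, Irgm2 and Igtp of the IRGs. All 10 were listed among the 24497 features of the expression table. Of these, 9 reached at least 1 TPM (a length-normalised share of all transcripts) in at least 2 of the 4 libraries, the filter for testing, which 11866 features passed. Gbp8 did not pass it, and Gbp2, Gbp4 and Gbp5 passed through PBS, since fewer than 2 CS1 libraries reached 1 TPM.

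Both groups were secondary recipients, irradiated at 320 rads, of sorted CD45.2 donor cells from the marrow of mice with acute myeloid leukaemia driven by the fusion gene MLL-AF9 (MA9). CS1 mice were injected i.p. with 5 mg/kg of CS1 every second day for 20 days, and control mice with PBS. CD45.2 cells were then bead-enriched from the spleens, and their poly(A) RNA was sequenced in 2 libraries per group; strain and age are not given in the labels. The labels do not say that the libraries of a group are from different mice, so a p-value reflects no more than how these libraries vary, which may be technical. CS1 replicate 2 is called CS1 in its title and description but CS2 in its treatment field, and it was kept in the CS1 group.

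GBPs and IRGs are interferon-inducible GTPases of vertebrate cells, best known in the mouse for attacking the vacuoles in which parasites and bacteria live. GBPs belong to the dynamin superfamily, and several are anchored to membranes by a lipid at the C-terminus. Among the IRGs, Irgm1, Irgm2 and Igtp (also called Irgm3) are regulators that sit on the cell's own membranes and keep the effector IRGs from loading there. Interferons switch these genes on through promoter elements, among them the gamma-activated site (GAS) and the interferon-stimulated response element (ISRE), which IRF factors bind.

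The promoter windows of 5 of these genes are shown because they carry the elements by which interferons are known to act on this family. Each is the RefSeq window from 250 bases before to 50 bases after a transcript start, on GRCm38.p6, read 5′ to 3′ in the direction of the gene. The windows are chr3:142620413-142620712 (plus strand) for Gbp2, chr3:142559794-142560093 (plus) for Gbp3, chr11:48871371-48871670 (minus) for Irgm1, chr11:58199306-58199605 (plus) for Igtp and chr11:58214727-58215026 (plus) for Irgm2. Capitals mark a match to the ISRE core, which is GAAA, 2 of any base and GAAA (on the other strand TTTC, 2 of any base and TTTC), or to the GAS core, TTCNNNGAA, which reads alike on both strands.
Gbp2: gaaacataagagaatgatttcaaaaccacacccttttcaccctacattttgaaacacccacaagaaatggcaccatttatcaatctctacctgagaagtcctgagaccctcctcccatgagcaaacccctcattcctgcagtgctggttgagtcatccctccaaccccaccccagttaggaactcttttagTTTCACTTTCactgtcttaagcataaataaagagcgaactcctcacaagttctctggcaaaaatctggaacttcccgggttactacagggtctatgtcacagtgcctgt
Gbp3: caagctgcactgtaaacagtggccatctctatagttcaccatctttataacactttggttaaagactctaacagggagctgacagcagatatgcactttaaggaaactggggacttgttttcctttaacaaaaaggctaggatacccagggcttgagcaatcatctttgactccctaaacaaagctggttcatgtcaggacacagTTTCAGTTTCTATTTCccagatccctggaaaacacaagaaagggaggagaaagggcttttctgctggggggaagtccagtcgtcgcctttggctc
Irgm1: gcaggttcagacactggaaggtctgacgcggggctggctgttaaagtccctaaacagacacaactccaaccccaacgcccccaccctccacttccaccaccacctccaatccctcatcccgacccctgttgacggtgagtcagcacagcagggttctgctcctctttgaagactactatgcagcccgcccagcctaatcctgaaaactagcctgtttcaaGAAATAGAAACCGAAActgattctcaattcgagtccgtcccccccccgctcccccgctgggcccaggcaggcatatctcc
Igtp: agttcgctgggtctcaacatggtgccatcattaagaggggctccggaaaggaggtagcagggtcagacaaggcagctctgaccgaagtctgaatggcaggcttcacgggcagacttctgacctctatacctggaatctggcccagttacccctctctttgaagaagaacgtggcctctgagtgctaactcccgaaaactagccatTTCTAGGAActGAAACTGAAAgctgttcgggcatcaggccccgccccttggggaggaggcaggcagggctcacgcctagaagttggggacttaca
Irgm2: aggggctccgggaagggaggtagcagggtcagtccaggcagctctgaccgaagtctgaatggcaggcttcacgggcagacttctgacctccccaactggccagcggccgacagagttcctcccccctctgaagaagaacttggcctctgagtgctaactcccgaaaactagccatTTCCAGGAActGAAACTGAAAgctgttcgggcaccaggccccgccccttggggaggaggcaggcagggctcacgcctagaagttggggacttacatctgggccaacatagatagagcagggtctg

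RefSeq windows were matched for 7 of the 10 genes, 8 windows in all because Gbp3 has 2; Gbp4, Gbp8 and Gbp9 had no entry. The ISRE core was found in 7 of the 8 windows and in each of the 7 genes, against 3.44% of 32851 mouse promoter windows of the same length. In Gbp3 and in Irgm1 the capitals join 2 overlapping ISRE matches. The second Gbp3 window was the one without a match. The GAS core was found in 4 of the 8 windows, those of Gbp5, Gbp7, Igtp and Irgm2, against 8.3% of all windows. Gbp5 and Gbp7 each held 2 GAS matches. No ISRE match overlapped a GAS match. With 1 mismatch allowed, the ISRE core was in all 8 windows, but also in 35.4% of all windows. A match is a run of letters, and binding was not measured.

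In Igtp and Irgm2 the GAS core was followed, after 2 bases, by an ISRE core, and this spacing was looked for in all windows after it had been seen there. The 21-base block occurred, on either strand, in 5 of the 32851 windows (0.0152%), and all 5 belonged to IRG family genes of chromosome 11. The blocks are printed in the direction of each gene, with both cores in capitals and the 2 bases between them in lower case. They lie on GRCm38.p6 in the windows given above for Igtp and Irgm2, and in chr11:48992197-48992496 for Tgtp1, chr11:49064163-49064462 for Tgtp2 and chr11:48927133-48927432 for Gm12185, all 3 on the minus strand.
Igtp: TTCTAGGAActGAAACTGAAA
Irgm2: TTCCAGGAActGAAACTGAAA
Tgtp1: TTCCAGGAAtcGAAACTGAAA
Tgtp2: TTCCAGGAAtcGAAACCGAAA
Gm12185: TTCCAGGAAtaGAAAGTGAAA
Relative to the RefSeq transcript start, the block of Igtp began at base -45 and that of Irgm2 at base -75. Those of Gm12185, Tgtp1 and Tgtp2 began at bases -86, -88 and -81. The windows of Irgm2 and Tgtp2 could not be found, by their transcribed end, in transcripts of the GENCODE annotation, so these positions are less certain. The windows printed above for Igtp and Irgm2 also read nearly alike on both sides of the block.

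**Figure D1:**
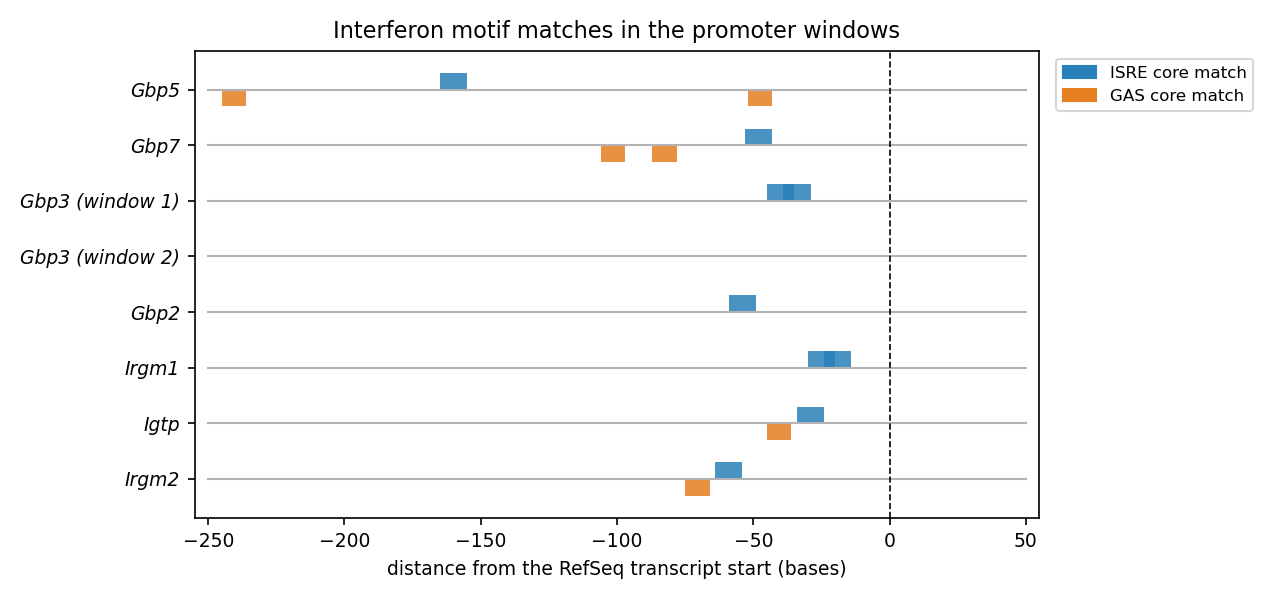
Matches to the ISRE core (blue, above the line) and to the GAS core (orange, below the line) in the 8 promoter windows, by distance in bases from the RefSeq transcript start. Gbp5 and Gbp7 carry 2 GAS matches each, the second Gbp3 window carries none of either kind, and in Igtp and Irgm2 the GAS and ISRE matches lie side by side.

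All 4 members of the GBP cluster on chromosome 3 had lower levels in CS1 cells. The values that follow are described without a test, since the genes were chosen with this difference known. Differences are CS1 minus PBS in mean log2(TPM + 1), a scale that compresses changes at low values. Gbp2, a prenylated GBP that limits Toxoplasma growth in mouse cells, had 1.1 and 0.95 TPM in CS1 cells, against 7.22 and 6.53 TPM in PBS cells. Its mean was 1.03 ± 0.106 TPM in CS1 and 6.88 ± 0.488 TPM in PBS (SD, n = 2 each), a difference of -1.96 and the lowest of the 10. Both CS1 libraries lay far below both PBS libraries.

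Gbp3, of the same cluster, was the most abundant GBP of PBS cells. It had 7.46 and 6.76 TPM in CS1 cells, against 22.79 and 24.26 TPM in PBS cells, with means of 7.11 ± 0.495 and 23.5 ± 1.04 TPM (SD, n = 2 each) and a difference of -1.60. Gbp3 alone made up most of the cluster's TPM in either group. Gbp5, a prenylated GBP linked to inflammasome activation in mouse macrophages, had 0.41 and 0.35 TPM in CS1 cells, against 1.98 and 1.99 TPM in PBS cells, a difference of -1.11. Gbp5 was below 1 TPM in both CS1 libraries, and with 0.1 in place of the added 1 its difference was -2.12. Gbp7, linked in mouse to the assembly of the phagocyte oxidase, had 1.77 and 1.86 TPM in CS1 cells, against 5.02 and 3.97 TPM in PBS cells, a difference of -0.96. The PBS libraries of Gbp7 were the more widely spread (SD 0.742 TPM, against 0.0636 TPM in CS1), and the groups did not overlap.

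Gbp9, in the GBP cluster on chromosome 5, was the only one of the 10 genes with higher levels in CS1 cells. It had 14.26 and 14.44 TPM in CS1 cells, against 9.66 and 10.54 TPM in PBS cells, with means of 14.4 ± 0.127 and 10.1 ± 0.622 TPM (SD, n = 2 each) and a difference of 0.47. Its neighbours on the same strand were lower in CS1 cells. Gbp4 had 0.72 and 0.60 TPM in CS1 cells, against 1.14 and 1.05 TPM in PBS cells, a difference of -0.34. Gbp8 had 0.47 and 0.22 TPM in CS1 cells, against 0.86 and 0.69 TPM in PBS cells, a difference of -0.40. These are levels near or below 1 TPM. Gbp4 was just inside the filter for testing and Gbp8 just outside it.

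The 3 regulator IRGs were lower in CS1 cells by less than the chromosome 3 GBPs. Irgm1, needed by mice to control mycobacteria and tied to autophagy and to the survival of blood stem cells, was the most abundant of the 10 genes in each group. It had 19.56 and 17.30 TPM in CS1 cells, against 31.98 and 27.13 TPM in PBS cells, with means of 18.4 ± 1.60 and 29.6 ± 3.43 TPM (SD, n = 2 each) and a difference of -0.65. Irgm2, a regulator found on the Golgi and known to restrain caspase-11 in mouse cells, had 6.10 and 7.06 TPM in CS1 cells, against 10.04 and 9.47 TPM in PBS cells, a difference of -0.51. Igtp, a regulator on the endoplasmic reticulum, had 13.99 and 14.84 TPM in CS1 cells, against 15.86 and 17.61 TPM in PBS cells, a difference of -0.20 that was -0.13 without PBS replicate 2. Of the 10 genes Igtp had the smallest difference in size, and the gap between its highest CS1 library and its lowest PBS library was smaller than the gap between the 2 PBS libraries.

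The 2 groups did not overlap for any of the 10 genes, 9 lower and 1 higher in CS1. Over all tested features the same held for 39.3% in the lower direction and for 45.1% in the higher direction. The median difference of the 10 genes was -0.58, against 0.04 over all tested features. A difference of at least 1 on the log2 scale in the lower direction, which Gbp2, Gbp3 and Gbp5 passed, was found in 2.56% of tested features. Gbp2 and Gbp5 passed the filter through PBS, where they are high, and all 10 genes were chosen with this difference known. Gbp8 was not among the tested features. These shares are therefore set beside the genes as a description only. In bulk samples fewer cells of a type and less RNA per cell cannot be told apart.

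**Figure D2:**
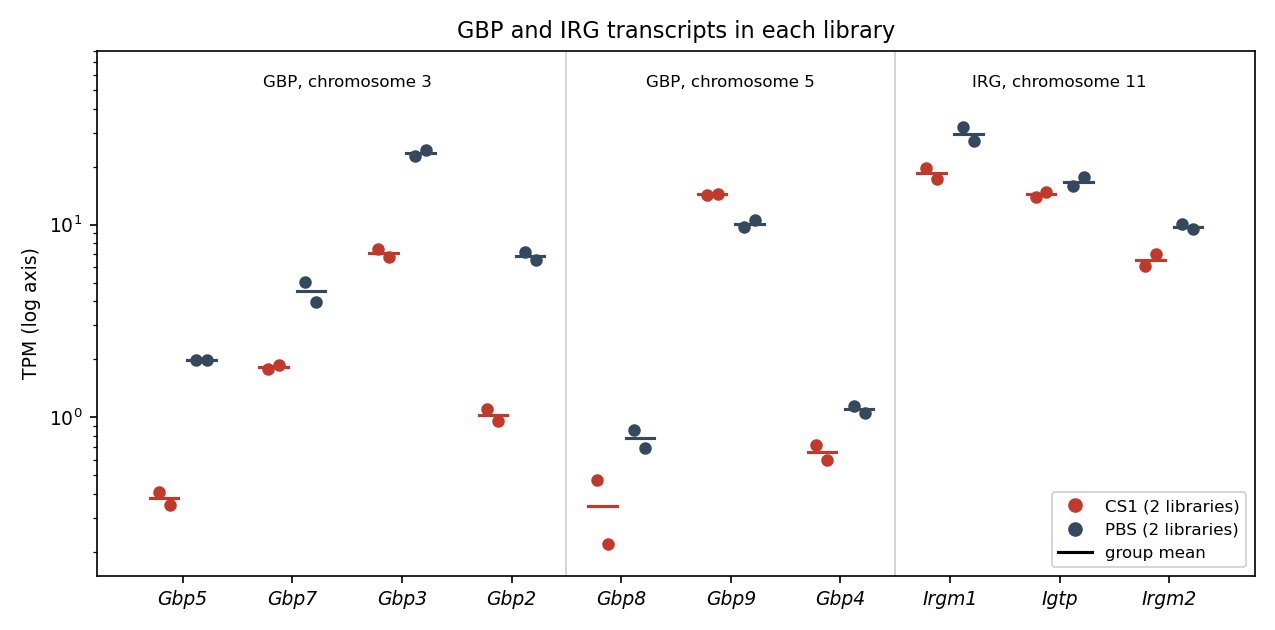
TPM of the 10 GBP and IRG genes in each library (log scale), with CS1 libraries left of PBS libraries for each gene and a bar at each group's mean. Gbp9 is the only gene whose CS1 points, at 14.26 and 14.44 TPM, lie above its PBS points, at 9.66 and 10.54 TPM.

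The order of the levels differed between the groups, and TPM, being per length, allows genes to be set beside each other. In CS1 cells Irgm1 came first, followed by Igtp and Gbp9, whose libraries overlapped each other, then by Gbp3 and Irgm2, which overlapped too. In PBS cells Irgm1 was followed by Gbp3 and Igtp, with Gbp9 and Irgm2 overlapping below them and Gbp2 next. Gbp2 lay below Gbp7 in both CS1 libraries and above it in both PBS libraries.

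The TPM of the 10 genes summed to 65.84 and 64.38 in CS1 cells, against 106.55 and 103.24 in PBS cells, a ratio of CS1 to PBS means of 0.621. The chromosome 3 GBPs accounted for most of this gap. They summed to 10.74 and 9.92 TPM in CS1 cells, against 37.01 and 36.75 TPM in PBS cells, a ratio of 0.280. The chromosome 5 GBPs summed to 15.45 and 15.26 TPM in CS1 cells, against 11.66 and 12.28 TPM in PBS cells, a ratio of 1.28 carried by Gbp9. The IRGs summed to 39.65 and 39.20 TPM in CS1 cells, against 57.88 and 54.21 TPM in PBS cells, a ratio of 0.703.

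The make-up of the summed TPM differed as well. Gbp9 held 22.0% of it on average in CS1 cells and 9.64% in PBS cells. Gbp3 held 10.9% in CS1 cells and 22.4% in PBS cells, and Gbp2 held 1.57% in CS1 cells and 6.55% in PBS cells. Igtp held 22.1% in CS1 cells and 16.0% in PBS cells. Irgm1 held nearly the same share in both groups, 28.3% in CS1 cells and 28.1% in PBS cells.

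**Figure D3:**
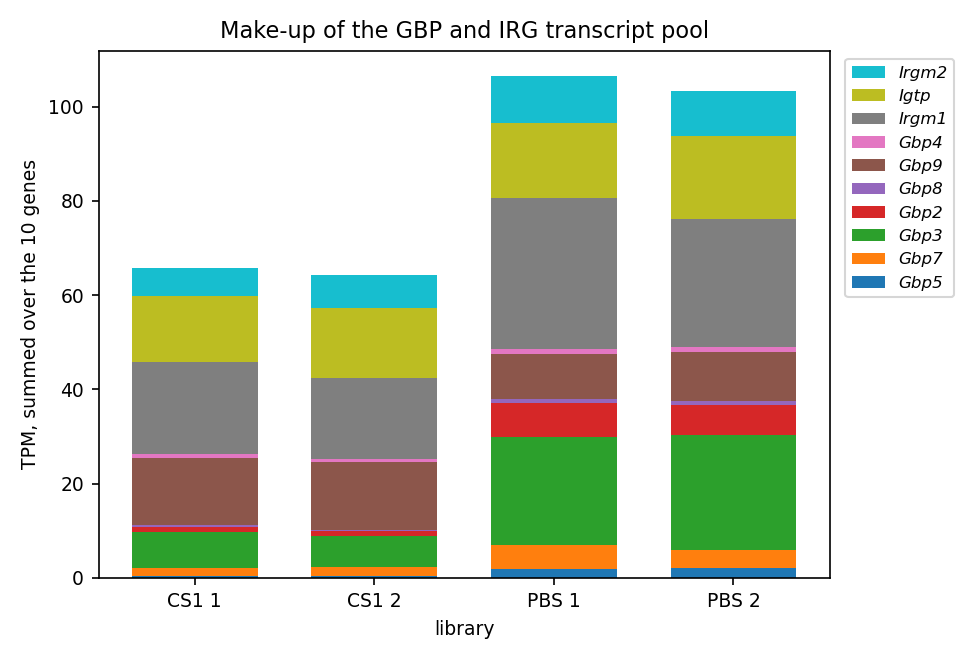
Summed TPM of the 10 GBP and IRG genes in each library, CS1 libraries left of PBS libraries, stacked by gene. The CS1 totals are 65.84 and 64.38 TPM and the PBS totals 106.55 and 103.24 TPM, with a wider Gbp9 band and narrower Gbp3 and Gbp2 bands in CS1.

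The genes lie in 4 clusters, given here by the gene spans of GENCODE release M21 on GRCm38, the assembly also called mm10, the build named in the submitters' processing notes. On chromosome 3, all on the plus strand, lie Gbp5 (chr3:142493978-142522344), Gbp7 (chr3:142530342-142550149), Gbp3 (chr3:142560026-142573209) and Gbp2 (chr3:142620602-142638008). Between Gbp3 and Gbp2 lies Gbp2b (chr3:142594847-142619179), which was listed at the lowest value of the table, 0.01 TPM, in all 4 libraries. On chromosome 5, all on the minus strand, lie Gbp8 (chr5:105014150-105139540), Gbp9 (chr5:105077630-105139539) and Gbp4 (chr5:105115767-105139586). Irgm1 (chr11:48861968-48871683, minus strand) lies in one chromosome 11 cluster, and Igtp (chr11:58199556-58207591) and Irgm2 (chr11:58199618-58222782), both on the plus strand, lie in the other.

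Several of these genes overlap or resemble other genes, and how reads were divided between them is not stated in the labels or the file. Gbp4, Gbp8 and Gbp9, on the minus strand, have annotated starts close together, with their other ends further apart, and share 60 or 61 exonic bases. Igtp and Irgm2 share 162 exonic bases, which is 8.01% of Igtp and 4.39% of Irgm2. Of the 31-base words in each gene's transcripts, 31.1% of those of Gbp8 also occur in another gene, as do 18.3% of those of Gbp9, 15.9% of Igtp, 14.7% of Gbp7, 14.3% of Gbp4 and 10.7% of Irgm2. For Gbp2, Gbp3, Gbp5 and Irgm1 the share was between 2.20% and 5.64%. The opposite directions of Gbp9 and of Gbp4 and Gbp8, and the levels of Gbp8, therefore carry more uncertainty than the values of Gbp2, Gbp3 and Gbp5; the part of shared sequence in them was not tested.

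The rest of the family was read from a list of 18 further GBP and IRG genes in the table, of which 8 passed the filter. Of these 8, 6 fell and 2 rose at an adjusted p under 0.05 in limma, a test across all features with Benjamini-Hochberg adjustment, with a median difference of -0.57. Tgtp2, one of those that fell, passed the filter only through PBS, where it is high. With no filter on low values 3 fell. Over all tested features 31.6% were lower and 35.3% higher in CS1 by the same test, 67% in all. This list and the gene lists below were also chosen with earlier results of these data known, so their calls are a description. Gm12250, listed in RefSeq as Irgb10, an effector IRG that acts with GBPs on bacterial membranes in mouse cells, had 3.17 and 3.18 TPM in CS1 cells, against 8.80 and 7.35 TPM in PBS cells. Its log2 fold change was -1.12 ± 0.114 (SE; limma adjusted p = 3.90e-04), and both CS1 libraries lay below both PBS libraries.

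The other IRG genes of the Irgm1 cluster that passed the filter also fell; Tgtp1 and Gm12185 of that cluster did not pass it. 9930111J21Rik1 had 73.24 and 71.40 TPM in CS1 cells, against 108.69 and 111.56 TPM in PBS cells, a log2 fold change of -0.60 ± 0.0314 (SE; limma adjusted p = 3.19e-05). 9930111J21Rik2 changed by -0.84 and Gm5431 by -0.54. Ifi47, the effector Irgd, changed by -0.44, a call that ended without CS1 replicate 2 or PBS replicate 2, with no filter and without the variance trend. Tgtp2, the effector Irgb6, changed by -0.64, with TPM of 0.34 and 0.64 in CS1 cells, against 1.12 and 1.51 in PBS cells. The call of Tgtp2 ended without CS1 replicate 1 or with no filter. Without either PBS library, or with a filter at 5 TPM, Tgtp2 did not pass the filter and had no test. Tgtp1 and Tgtp2 share 84.4% and 90.5% of their 31-base words with other genes, so their split is uncertain. 9930111J21Rik1 shares 88.3% of its words, and 85.6% occur in 9930111J21Rik2. For 9930111J21Rik2 the share was 69.5%, with 59.5% in 9930111J21Rik1. For Gm5431 it was 47.2%, with 36.7% in 9930111J21Rik1. The falls of these genes therefore cannot be counted as fully separate measurements.

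Irgq and Irgc1, family members that are not induced by interferon in the mouse, were the 2 genes of this list that rose. Irgq had 7.69 and 7.88 TPM in CS1 cells, against 6.53 and 6.44 TPM in PBS cells (log2 fold change 0.23, limma adjusted p = 0.0483). Irgc1 had 3.10 and 3.39 TPM in CS1 cells, against 2.49 and 2.14 TPM in PBS cells (0.36, limma adjusted p = 0.0432). The groups did not overlap for either gene. Both stood close to the threshold, and each call ended when any 1 library was left out.

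The family genes that did not pass the filter were low. Tgtp1 had 0.51 and 0.43 TPM in CS1 cells, against 1.41 and 0.80 TPM in PBS cells, and Gm12185 had 0.32 and 0.54 TPM in CS1 cells, against 0.84 and 0.54 TPM in PBS cells. Gbp6 was listed at 0.07 and 0.01 TPM in CS1 cells, against 0.16 and 0.20 TPM in PBS cells, and Iigp1, the effector Irga6, reached at most 0.07 TPM in any library.

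**Figure D4:**
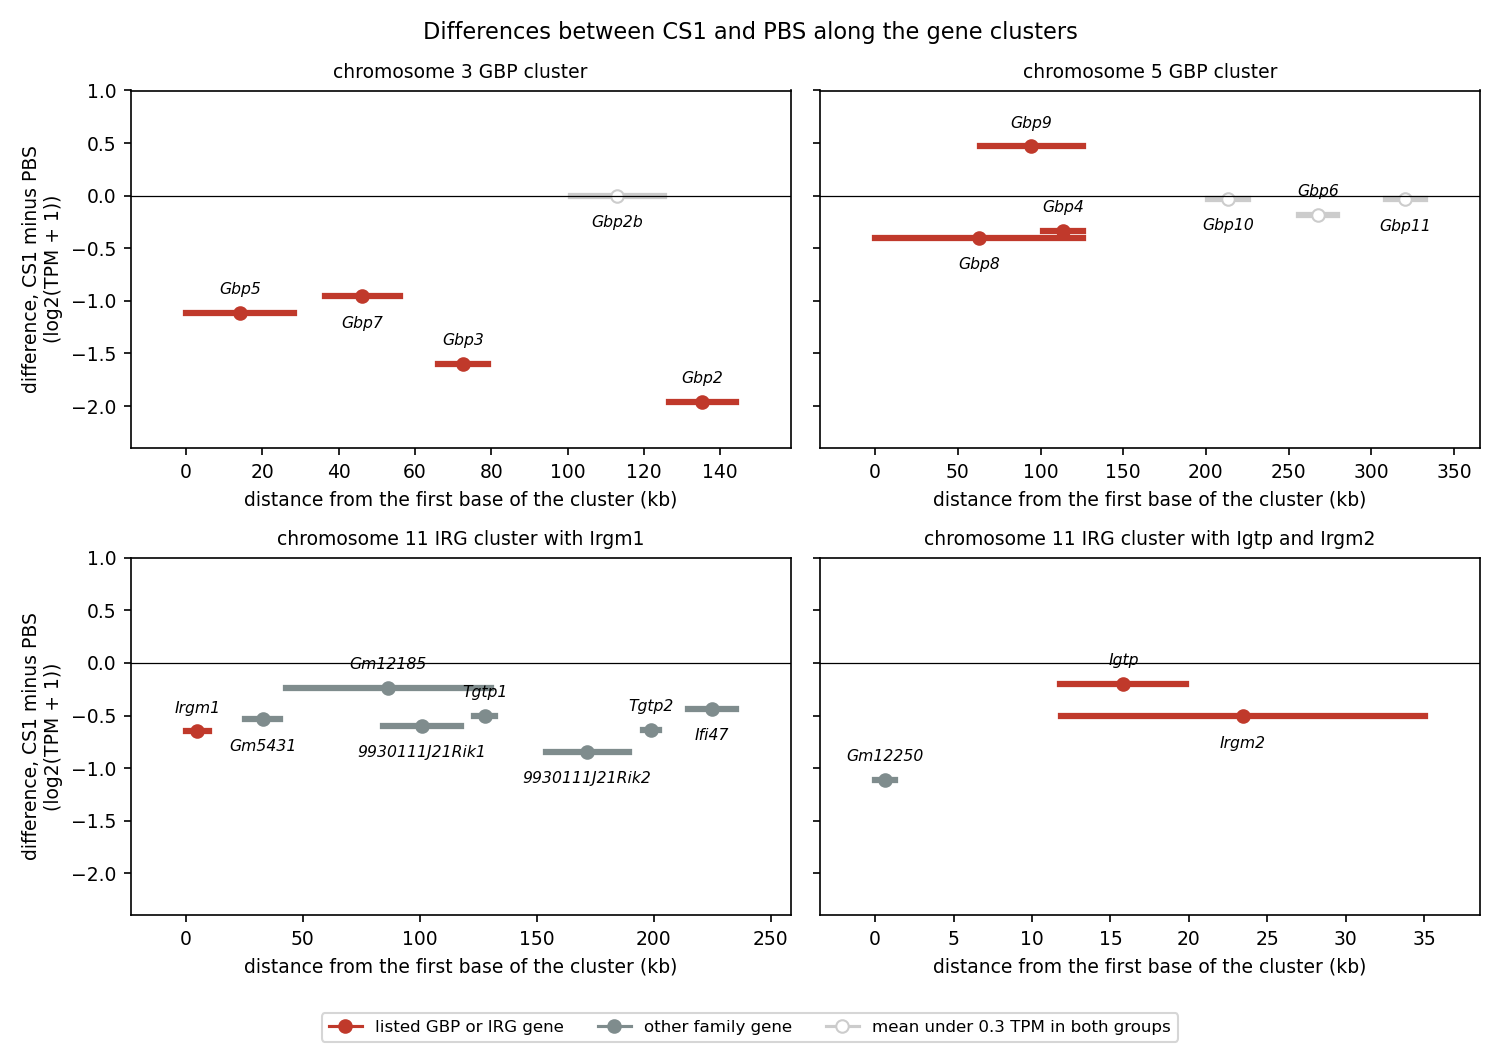
Difference between CS1 and PBS (CS1 minus PBS, log2(TPM + 1)) of the GBP and IRG genes of 4 clusters against distance in kilobases from the first base of its cluster; bars span the gene, red marks the 10 genes described, grey other family genes, and open circles genes averaging under 0.3 TPM in both groups. The chromosome 3 genes reach -1.96 at Gbp2, and Gbp9 at 0.47 is the only gene drawn clearly above the zero line; Irgq and Irgc1 lie outside these clusters.

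Among 6 other interferon-inducible large GTPases, 4 fell, none rose and 2 were not called, with a median difference of -0.76. The genes that fell belong to the very large inducible GTPases or their predicted relatives: Gvin1 (-0.81), Gm4070 (-0.81), Gm17757 (-0.71) and Gm1966 (-0.93). Gm1966 had 61.39 and 59.13 TPM in CS1 cells, against 113.78 and 118.24 TPM in PBS cells. Of the 31-base words, 99.7% of those of Gvin1 and 98.6% of those of Gm4070 occur in another gene, mostly in each other, so these 2 cannot be counted as separate measurements. The share was 37.8% for Gm1966 and was not computed for Gm17757. The antiviral GTPases Mx1 and Mx2 were the 2 not called. Mx1 had 37.07 and 37.34 TPM in CS1 cells, against 34.30 and 37.07 TPM in PBS cells (0.06 ± 0.0506, SE; limma adjusted p = 0.334), and Mx2 differed by -0.02 ± 0.136 (SE; limma adjusted p = 0.918).

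Constitutive dynamin superfamily GTPases, which shape membranes without interferon, were called in both directions: of 9 tested, 5 rose (3 with a filter at 5 TPM) and 3 fell, with a median of 0.26. Atl1, one of those that rose, passed the filter only through CS1. Mfn2, which fuses mitochondria, had 45.80 and 44.69 TPM in CS1 cells, against 36.27 and 32.74 TPM in PBS cells (0.38 ± 0.0576, SE; limma adjusted p = 0.00188). Dnm2, the endocytic dynamin, changed by -0.38 and the endoplasmic reticulum GTPase Atl3 by -0.24.

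The lists around the GTPases held 116 tested genes, of which 63 fell, 23 rose and 30 were not called, beside the 31.6% lower and 35.3% higher of all tested features. Of 11 genes of interferon gamma signalling, 7 fell and none rose (1 did without CS1 replicate 2 or after quantile normalization), with a median of -0.17. Ifng, the cytokine itself, was too low to test, with 0.01 and 0.12 TPM in CS1 cells, against 0.22 and 0.54 TPM in PBS cells. The receptor chain Ifngr1 changed by -0.10 and Ifngr2 by -0.53, and the receptor kinase Jak1 by -0.84 and Jak2 by -0.12. Jak2's call (limma adjusted p = 0.0312) ended without CS1 replicate 1, CS1 replicate 2 or PBS replicate 2, with no filter, without the variance trend, and after quantile normalization, where the difference was -0.050, and Ifngr1's ended after quantile normalization or without the variance trend.

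Socs3, an inhibitor of cytokine receptor signalling, changed by -1.23. Of 6 genes of type I interferon signalling, 5 fell and none rose, the 5 coming to 3 after quantile normalization and 2 with no filter. They were led by Irf9 (-0.55), Tyk2 (-0.36) and Usp18 (-0.97). Usp18 had 1.82 and 0.96 TPM in CS1 cells, against 3.69 and 3.5 TPM in PBS cells. It passed the filter through PBS, where it is high, since fewer than 2 CS1 libraries reached 1 TPM. Of 11 IRF and partner factors, 6 fell and 2 rose (1 without CS1 replicate 1 or PBS replicate 2), with a median of -0.54.

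Irf1, a transcription factor induced by interferon gamma, had 22.8 and 23.3 TPM in CS1 cells, against 35.6 and 37.8 TPM in PBS cells (-0.65 ± 0.0507, SE; limma adjusted p = 1.40e-04). Irf2 changed by -0.65, Irf7 by -1.01 and Irf5 by -0.54. Irf8, the myeloid IRF that binds ISRE-like elements with PU.1, rose by 0.09 (limma adjusted p = 0.0207), with 279 and 273 TPM in CS1 cells, against 263 and 256 TPM in PBS cells. That call ended without CS1 replicate 1 or PBS replicate 2, with no filter, without the variance trend, and after TMM rescaling.

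Other genes induced by interferon gamma were called in both directions: of 22 tested, 12 fell and 6 rose, with a median of -0.21. Those called higher came to 2 without CS1 replicate 1, 3 without CS1 replicate 2, 3 after TMM rescaling and 1 with no filter, and Ido1 among them passed the filter only through CS1. Samhd1, which depletes nucleotides, changed by -1.17, Ifi30, a lysosomal thiol reductase of antigen processing, by -0.996 and Parp14, an ADP-ribosyltransferase, by -1.50. Of 19 genes known for induction by type I interferon, 13 fell and none rose (1 did without CS1 replicate 2), with a median of -0.64. In this list 1 gene was higher at an unadjusted p under 0.05, and in the other interferon and GTPase lists with none called higher there was 0 at that level in limma. Zbp1, a nucleic acid sensor, changed by -2.01, Ifitm3, which blocks viral entry, by -1.68 and Trim30a by -1.50.

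Genes that act with GBPs and IRGs were read from 4 lists. Of 11 inflammasome and pyroptosis genes, 8 fell and 1 rose (2 without CS1 replicate 2 or after quantile normalization), with a median of -0.54. Casp4, the mouse caspase-11 that GBPs help to activate, had 21.7 and 24.1 TPM in CS1 cells, against 54.9 and 57.4 TPM in PBS cells (-1.26 ± 0.0614, SE; limma adjusted p = 2.58e-05). Naip2, a sensor of bacterial secretion systems, changed by -0.93 and Gsdmd, the pore-forming protein of pyroptosis, by -0.54.

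Of 10 genes of the ATG8 conjugation system, on which IRG loading depends in mouse cells, 5 fell (3 with no filter) and 4 rose, with a median of -0.03; Atg7 changed by -0.78, Atg3 by -0.46 and Gabarapl2 by -0.42. Of 9 ubiquitin adaptors and galectins, 2 fell (Lgals8 by -0.44 and Lgals9 by -0.12) and 2 rose. Optn, at 0.73, passed the filter only through CS1, the group where it is high. Without either CS1 library Optn did not pass it and could not be called, and no other gene of the list was called higher. After TMM rescaling 5 genes of the list were called lower. Of 9 genes of protein prenylation, the lipid modification named above for Gbp2 and Gbp5, 3 fell and 3 rose. The 3 that rose came to 1 after TMM rescaling or quantile normalization. Fewer than these 3, but not none, were called higher when a library was left out. Fdps changed by 0.55, Pggt1b by -0.48 and Zmpste24 by -0.30.

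**Figure D5:**
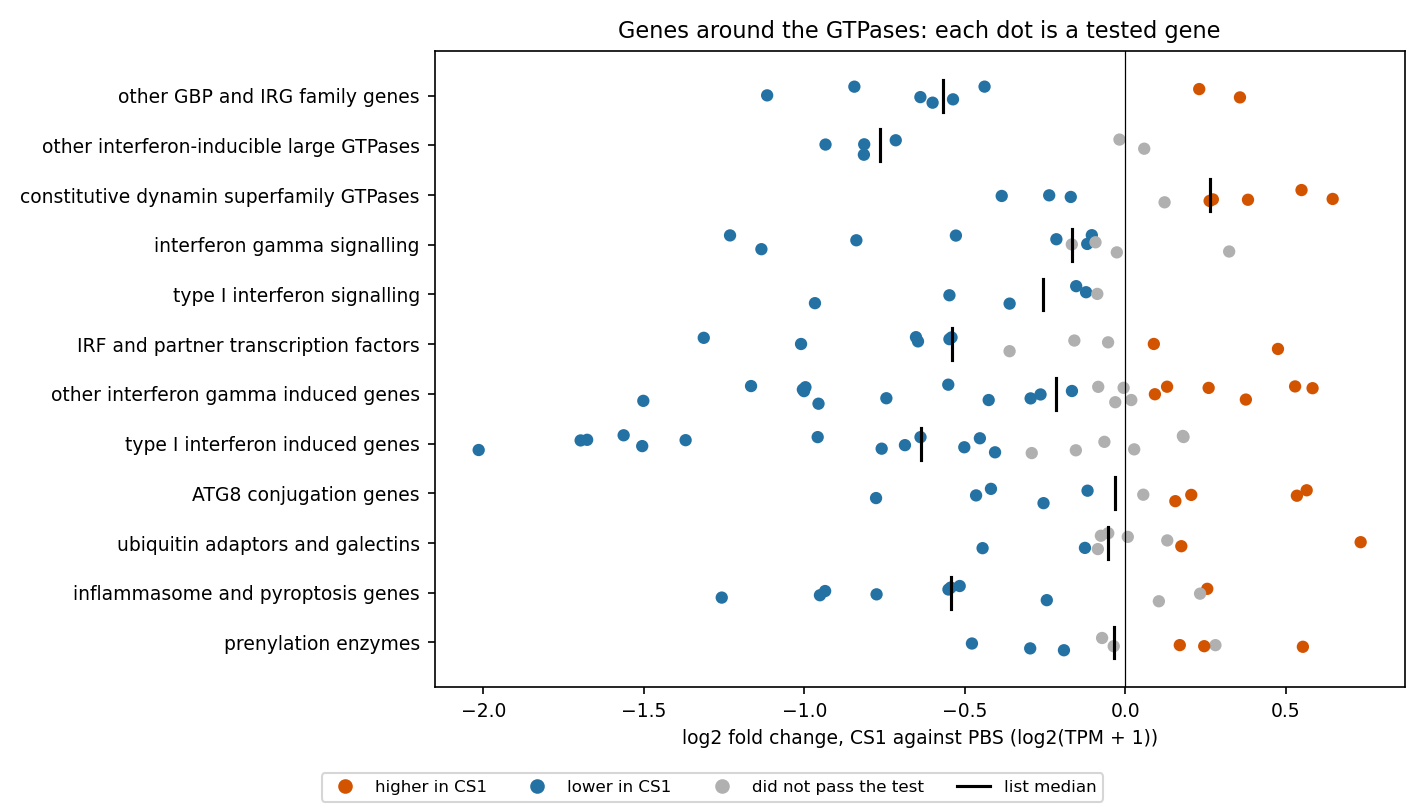
Log2 fold change (CS1 over PBS, log2(TPM + 1)) of each tested gene in the lists around the GTPases, 1 row per list, with a bar at the list's median and colour for the limma call. The type I interferon induced list has 13 genes lower and none higher, and the constitutive dynamin superfamily list has 5 higher and 3 lower.

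Markers of leukaemic and of other cells were called in both directions, and their part in the result was not tested. Of 31 tested markers, 18 fell, 6 rose and 7 were not called, beside the 31.6% lower and 35.3% higher of all tested features. Of 8 leukaemic myeloid markers, all detected in every library, 5 fell and 2 rose; Ptprc, which encodes CD45, fell by 0.89 on the log2 scale, and the 2 that rose were Mpo, a granule enzyme of early myeloid cells, by 2.33 and Kit, a receptor of immature blood cells, by 1.68. Of 5 tested T cell markers, 3 fell (1 without PBS replicate 1) and none rose, with summed TPM of 22.62 and 21.28 in CS1 cells, against 35.64 and 31.27 in PBS cells. Of 6 B cell markers, 4 fell and none rose (1 did without CS1 replicate 2), with summed TPM of 36.53 and 32.58 in CS1 cells, against 56.26 and 54.73 in PBS cells. Among the markers that fell, Cd3e of the T cells and Pax5 of the B cells passed the filter through PBS, where they are high. Cd3e had 0.87 and 2.09 TPM in CS1 cells, against 3.55 and 2.66 TPM in PBS cells. Pax5 had 0.53 and 1.2 TPM in CS1 cells, against 2.9 and 3.39 TPM in PBS cells. Of 3 tested NK and cytotoxic markers, 2 rose and 1 fell, with summed TPM of 48.64 and 56.63 in CS1 cells, against 22.07 and 20.53 in PBS cells. Most of this sum in each group came from Nkg7 and Klrd1, the 2 markers that rose. Nkg7 alone had 36.7 and 42.6 TPM in CS1 cells, against 11.3 and 9.48 TPM in PBS cells. The marker that fell, Gzma, passed the filter only through PBS. Its call ended without CS1 replicate 1, and without either PBS library it did not pass the filter. The markers of this list that did not pass the filter went the other way from the sum. Ncr1, an NK receptor, was listed at 0.01 TPM in both CS1 libraries, against 0.43 and 0.44 TPM in PBS libraries. Gzmb, Prf1, Klrb1c and Eomes were also lower in both CS1 libraries than in either PBS library. Gzmb had 0.5 and 0.61 TPM in CS1 cells, against 0.91 and 1.18 TPM in PBS cells.

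Of 5 tested macrophage markers, 3 fell and 2 rose. Both that rose, Vcam1 and Mertk, passed the filter only through CS1. Without either CS1 library neither passed it, so neither could be called. Marco, which fell, passed only through PBS. The list had summed TPM of 436.68 and 428.41 in CS1 cells, against 814.02 and 818.59 in PBS cells; nearly all of it was Cd68 and Adgre1, which leukaemic monocytic cells can also express, and C1qa, C1qb and C1qc stayed under 1 TPM throughout. Both tested stroma and endothelium markers fell, and 1 was called lower when CS1 replicate 2 or PBS replicate 2 was left out. The 2 tested were Pecam1, which held most of the list's summed TPM, and Acta2, which had 2.15 and 1.86 TPM in CS1 cells, against 2.92 and 3.44 TPM in PBS cells. Cdh5, Col1a1 and Col3a1 had at most 0.31 TPM in any library, and Pdgfra was listed at 0.01 TPM in every library. Neither tested erythroid marker was called. Hba-a1 was listed at 26.08 and 0.01 TPM in CS1 cells, against 16.22 and 17.09 TPM in PBS cells.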

How the data were processed

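Poly(A) RNA was sequenced from 4 libraries, 2 CS1 and 2 PBS, grouped by their titles. STAR, RSEM and mm10 are named in the submitters' processing notes, with no versions or roles. The values the authors deposited were taken as TPM; the unit is not stated and was inferred from column sums between 977973 and 986345 and from the mention of RSEM. The lowest value, 0.01, stands where a 0 would be expected. TPM is a share of a total and keeps no read depth, so depth is unknown, no counting interval is given, and whether replicates differed by more than sampling noise could not be tested.

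The 11866 of 24497 features that reached 1 TPM in 2 or more libraries were compared in limma 3.58.1 (R 4.3.3) on log2(TPM + 1), with the variance trend, two-sided; p-values were adjusted by Benjamini-Hochberg across these features and called under 0.05. The branch of the design for normalized values was used. An exact permutation test of a single gene cannot go below 0.333 with 2 against 2 libraries. The 10 members and all gene lists were chosen with earlier results of these data known; members were given no test. Named genes were the members, the tested genes of the other GTPase lists, the interferon gamma signalling genes Ifng, Ifngr1, Ifngr2, Jak1, Jak2, Irf1, Irf2 and Irf8, and the 3 smallest p-values of each pathway list; 1 gene that the rule names is not reported here; other family genes and cell markers were named after their values were seen. Motifs were searched on both strands of RefSeq promoter windows with Python 3.11.15; the windows of 5 of the 8 could be found, by their transcribed end, in GENCODE transcripts. Overlaps and shared 31-base words were computed from GENCODE M21. The fit was tested on simulated data. Alternatives were another pseudocount (0.1), no filter, a filter at 5 TPM, rescaling by TMM (trimmed mean of M values), quantile normalization, no variance trend, a replicate block and leaving out each library. Protein sequences were not analysed here.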

Additional observations from a re-analysis of the deposited data

How the results depend on the processing

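No difference of the 10 GBP and IRG genes changed sign under any alternative. Their median difference, -0.58 as reported, was -0.85 with a pseudocount of 0.1, -0.64 after TMM rescaling and -0.69 after quantile normalization, and lay between -0.66 and -0.50 with 1 library left out. The log2 ratio of their summed TPM, -0.69 as reported, was -0.75 after rescaling and -0.81 after quantile normalization. Of the 10 genes, 6 passed a filter at 5 TPM and 7 passed without either PBS library. Among the 14 other family genes and large GTPases tested, the calls in all, 12, came to 7 with no filter. The calls in the higher direction, 2, came to 1 with a pseudocount of 0.1, to 0 with no filter, at 5 TPM, after rescaling and after quantile normalization, and to between 0 and 0 with 1 library left out; the genes concerned are Irgq and Irgc1. The pathway genes called higher, 23, came to 11 with no filter and to 15 after rescaling, and to between 13 and 17 with 1 library left out, lowest without CS1 replicate 1. The cell type markers called, 24, came to 15 with no filter and 14 at 5 TPM, and those called lower, 18, to 9 and 10. Mx1 turned to -0.0034 after rescaling, Mx2 lay between -0.17 and 0.13 with 1 library left out, and Lgals9 to 0.0040 after quantile normalization; none of these values was called under its setting, and the cause was not tested. The share of calls in the higher direction was 52.8% as reported and 45.6% after rescaling.

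The labels state no pairing of the replicate numbers. Over 11866 tested features, the replicate 1 minus replicate 2 differences of CS1 and of PBS had a correlation of 0.0219. With only 2 pairs this value cannot show whether the libraries were paired. With a replicate block the calls over all features came to 7750, against 7949 without it, and the family genes called higher came to 0.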

Other observations

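Features were compared with the median pattern, over the 4 libraries, of the 9 GBP and IRG genes that passed the filter. Among 8238 other features averaging at least 10 TPM, those most like it were Sipa1l2, Slc10a3, Pofut2, Sgsh and Arhgap27. Predicted symbols, among them the related GTPases Gm1966 and 9930111J21Rik1, were left out of this search. Likeness was the root mean square distance on the log2(TPM + 1) scale, each feature centred on its mean, and it was 0.0411 for Sipa1l2 and 0.0508 for Slc10a3. Sgsh, a lysosomal sulfatase, had 26.01 and 25.26 TPM in CS1 cells, against 43.56 and 40.85 TPM in PBS cells. The 5 features were chosen on the same libraries, so the likeness is a description, with no test.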
